A study of Mus musculus with 6 samples.

Results

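The genes described here encode the enzymes and carriers of mitochondrial and peroxisomal fatty acid oxidation, 34 genes chosen by symbol out of 33017 in a count table of mouse small intestine. All 34 were found in the table and 32 had enough reads to be tested, out of 15904 genes tested in all. Messenger RNA had been sequenced from frozen small intestine in 2 groups, labelled control and model, with 3 libraries in each. The series title names simulated microgravity and radiation, and the design text asks for the joint effect of both factors. The title also names a protective compound, which no label of these 6 libraries mentions. The labels give no strain, age, sex, dose, duration or segment of the intestine for either group. Whether each library stands for its own animal is not stated either, so the spread behind every p-value is that between libraries and may be technical.

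Fatty acids are burned 2 carbons at a time. Long chains are first joined to coenzyme A, carried into mitochondria as carnitine esters, and then passed through repeated rounds of oxidation, hydration, oxidation and cleavage. Peroxisomes run a parallel spiral that shortens very long and branched chains, and auxiliary enzymes of both organelles move or remove the double bonds of unsaturated chains. Many of these genes are known targets of PPAR-alpha, a nuclear receptor that binds fatty acids and is active in the absorptive enterocytes of the small intestine, the cells that also take up dietary fat.

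Levels below are CPM, read counts scaled to a common library size after TMM normalization, which aligns the bulk of the genes between libraries. Library totals ran from 35007515 to 45285564 counts. Log2 fold changes compare model with control and carry a standard error (SE) from edgeR's quasi-likelihood fit over all tested genes. A gene was called at a Benjamini-Hochberg adjusted p under 0.05.

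Control 3 stood apart from the other 5 libraries in markers of intestinal position. Of 8 markers of the proximal small intestine, 7 were lowest in control 3, and their summed level was 270 CPM there against 7487 and 6209 CPM in control 1 and 2 and between 5225 and 9922 CPM in the model libraries. The transcription factor gene Gata4, which marks duodenum and jejunum, was at 1.90 CPM in control 3 and between 214 and 255 CPM elsewhere. The 8 markers of the distal small intestine summed to 3056 CPM in control 3, to 242 and 270 CPM in control 1 and 2 and to between 216 and 347 CPM in the model libraries. Among these, the ileal bile acid binding protein gene Fabp6 was at 1166 CPM in control 3 and at most 0.28 CPM elsewhere, while Fgf15 was at 0 in 5 libraries. The fold changes of the genes described and the medians of the lists are therefore also given without control 3. Model 3 held 5493 CPM of 7 pancreatic acinar markers, against 4.32 to 26.4 CPM in the other libraries. Control 2 and model 1 were low in 5 Paneth cell markers, at 22.9 and 88.1 CPM against 780 to 6037 CPM elsewhere. The 6 fat cell markers summed to 79.1 CPM in control 3 and to between 71.2 and 185 CPM elsewhere. Among them Adipoq was at 12 CPM in control 3 and at most 0.063 CPM elsewhere. Plin1, Cfd, Lep and Retn were also highest in control 3, while Cidec was lowest there, at 22.2 CPM against 69.3 to 184 CPM elsewhere.

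The stated tissue was checked against 10 enterocyte markers. Their sum ran from 18708 to 28442 CPM in control and from 23774 to 38335 CPM in model libraries, lowest in control 3 and highest in model 1, and 1 of the 10, Fabp2, was listed at 0 in all 6 libraries. Of the 9 tested, 8 were lowest in control 3, while Anpep was highest there, at 8570 CPM against 1973 to 3461 CPM elsewhere. Vil1 ran only from 1810 to 2389 CPM and Cdh17 from 1299 to 1805 CPM over the 6 libraries. Of these 10 genes 2, Apoa4 and Lct, are also among the proximal segment markers. In bulk tissue, fewer cells of a type and less RNA per cell cannot be told apart.

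No fatty acid oxidation gene was called. edgeR called 0 of the 32 tested members, with a smallest adjusted p of 0.851, against 0% of all genes tested. The Wald test of DESeq2 also called 0 members, with a smallest adjusted p of 0.337, where it called 0.158% of all genes. At an unadjusted p under 0.05 edgeR gave 1 member, Acadl, which was higher in the model libraries, and 0 that were lower. Of all genes 4.81% reached that p, 1.82% higher and 2.99% lower. As a description, 27 of the 32 members had a fold change above 0, against 48.2% of all genes tested, and the median log2 fold change was 0.41, against -0.018 over all genes. The groups did not overlap for 2 members, Acadl and Pex11a, both higher in the model libraries. That is 2 of 32, where 4.73% of all genes were higher without overlap, and 0 members were lower without overlap, where 6.33% of all genes were.

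The pathway's sum separated single libraries rather than the groups. The 34 genes together measured 4832, 5783 and 2363 CPM in control 1, 2 and 3 and 8134, 5003 and 5098 CPM in model 1, 2 and 3. The low value was control 3 and the high value model 1, and the sums of model 2 and model 3 lay between those of control 1 and control 2. Of the 32 tested members 27 were lowest in control 3, where 26.8% of all genes were, and 26 were highest in model 1, where 28.5% of all genes were.

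**Figure D1:**
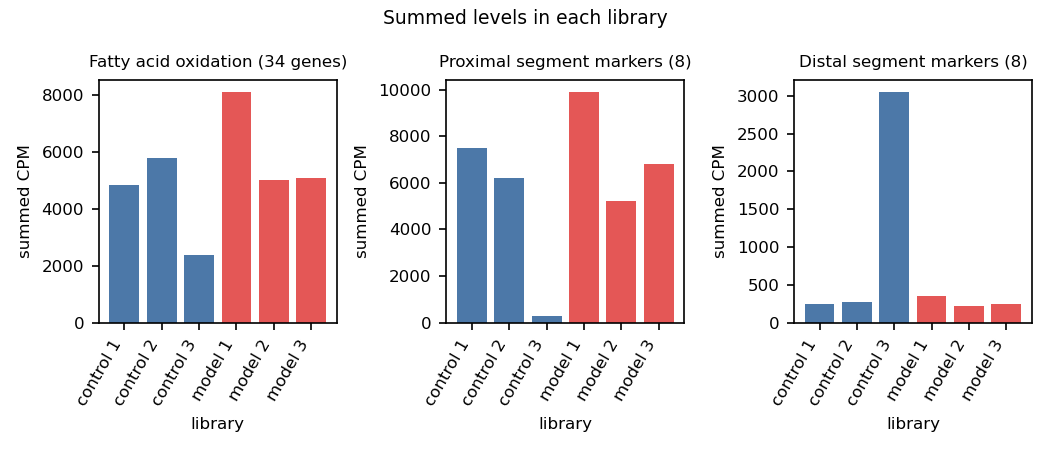
Summed CPM (y axis) of the 34 fatty acid oxidation genes, 8 proximal segment markers and 8 distal segment markers in each library (x axis), with control libraries in blue and model libraries in red. The oxidation genes and the proximal markers are lowest in control 3 (2363 and 270 CPM) and highest in model 1 (8134 and 9922 CPM), and the distal markers are highest in control 3 (3056 CPM).

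Within the control group, the mean of control 1 and 2 exceeded control 3 by a median ratio of 2.0 over the members, against 0.992 over all genes. The ratio was above 2 for 18 of the 32 members, where 8.29% of all genes passed that mark. It ranged from 0.312 for Abcd2 to 21.3 for Acaa1b. Within the model group, model 1 exceeded the mean of model 2 and 3 by a median ratio of 1.51 over the members, against 0.965 over all genes, and the ratio was above 1 for 28 of the 32. These ratios are descriptions of single libraries. The mean of control 1 and 2 exceeded control 3 for 8 of 8 proximal segment markers and 8 of 9 tested enterocyte markers. Model 1 exceeded the mean of model 2 and 3 for 6 of the 8 proximal markers and 4 of the 9 enterocyte markers. The part of these markers in the differences was not tested.

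**Figure D2:**
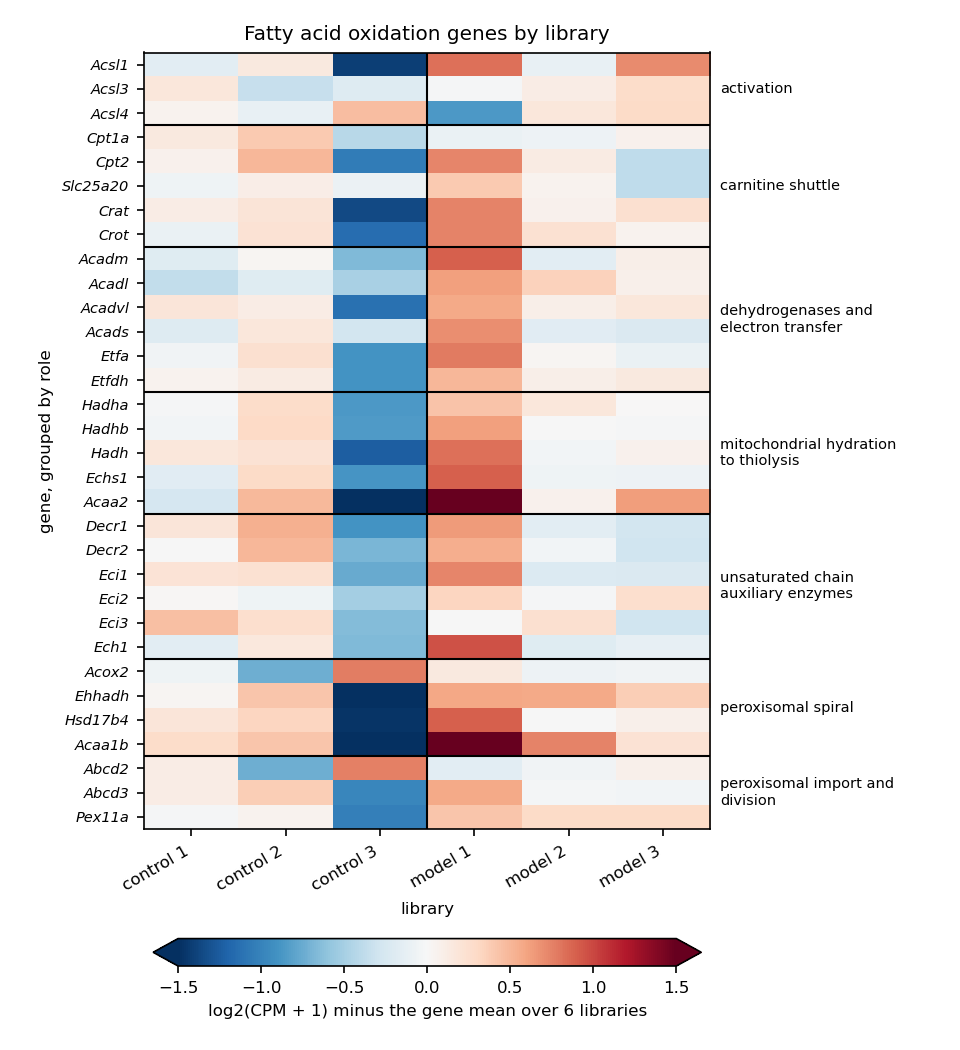
Colour gives log2(CPM + 1) minus the mean of the gene over 6 libraries, for the 32 tested genes (rows, grouped by role) in each library (columns); the colour scale is clipped at its ends. Control 3 is low for most genes and model 1 high for most, while Acox2, Abcd2 and Acsl4 are highest in control 3.

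Leaving out libraries changed this picture. Without control 3, 24 of 32 members were above 0, against 53.1% of all genes, and the median was 0.20. In that comparison 3 members, Acadl, Acox2 and Pex11a, were higher without overlap, where 8.14% of all genes were, and 1, Cpt1a, was lower, where 8.26% of all genes were. Without model 1 it was 0.14, with 22 members above 0. Without both, a fit of 2 against 2 libraries chosen after the data were seen, 14 members were above 0 and 18 below, against 47.6% of all genes above 0, and the median was -0.037, against -0.017 over all genes. Most members were lowest in control 3 and highest in model 1, so leaving out both favours lower fold changes in advance. The fit without both is therefore not an independent check of the members. No fit called a member.

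The promoter windows of 1 pair of members share a stretch of sequence, which is shown before the values of the pair. The divergently transcribed genes Hadha and Hadhb, which encode the alpha and beta subunits of the mitochondrial trifunctional protein, start 273 bases apart in RefSeq's annotation of GRCm38.p6. The stretch that the promoter windows of both genes share lies between these starts at chr5:30155003-30155230, and it is shown because the counts of the pair are compared library by library after it. It is given 5′ to 3′ on the strand of Hadhb, and capitals mark the motif GGGCGG.
Hadha and Hadhb shared promoter stretch: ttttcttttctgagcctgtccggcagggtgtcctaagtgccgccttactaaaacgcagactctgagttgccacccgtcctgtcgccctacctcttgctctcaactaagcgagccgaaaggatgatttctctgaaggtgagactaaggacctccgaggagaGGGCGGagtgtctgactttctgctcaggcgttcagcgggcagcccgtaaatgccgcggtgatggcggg
The 228 bases hold GGGCGG 1 time and CCAAT 0 times, searched on both strands. Of all RefSeq promoter windows, which run from 250 bases before to 50 bases after a start, 35.7% hold GGGCGG and 37.4% hold CCAAT. These windows are 300 bases long, so longer than the stretch. Of the 32 windows of members, 23 hold GGGCGG and 13 hold CCAAT. Hadha, named with Hadhb after its values were seen, measured 392, 479 and 217 CPM in control 1, 2 and 3 and 534, 447 and 399 CPM in model 1, 2 and 3. Hadhb measured 153, 194 and 86.5 CPM in the control and 242, 156 and 156 CPM in the model libraries. Both were lowest in control 3 and highest in model 1, and both groups overlapped. The count of Hadha divided by that of Hadhb was 2.56, 2.47 and 2.51 in the control and 2.20, 2.86 and 2.56 in the model libraries. Per kilobase of transcript the ratio was between 1.12 and 1.46. The log2 fold changes were 0.34 (SE 0.33) for Hadha and 0.36 (SE 0.34) for Hadhb, and neither was called. They were 0.095 and 0.11 without control 3, and -0.047 and -0.16 without both control 3 and model 1.

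The promoters were also searched for a direct repeat of AGGTCA with 1 spacer base of any kind (N) between the copies, the element that PPAR binds together with RXR and that HNF4 binds as well. RefSeq windows were found for 29 of the 34 genes, in 32 windows. With up to 2 mismatches at the 12 fixed letters, on both strands, 4 of the 32 windows held a match, which is 12.5%, against 3.86% of all 32851 windows. With up to 1 mismatch 0 of the 32 held it, against 0.554% of all windows. The matches are shown on the strand of the gene, 5′ to 3′, with the match in capitals, in GRCm38.p6.
Echs1, chr7:140116472-140116524, minus strand: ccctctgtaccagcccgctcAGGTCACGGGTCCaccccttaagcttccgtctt
Etfa, chr9:55512288-55512340, minus strand: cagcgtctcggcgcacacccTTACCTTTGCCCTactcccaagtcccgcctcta
Slc25a20, chr9:108662122-108662154, plus strand: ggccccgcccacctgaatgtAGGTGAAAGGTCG
Acox2, chr14:8258818-8258850, minus strand: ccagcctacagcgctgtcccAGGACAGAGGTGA
The match in Etfa is on the strand opposite to the gene, and those in Slc25a20 and Acox2 lie past the annotated start. These 4 genes did not share a pattern: Echs1 and Etfa were lowest in control 3, Slc25a20 was lowest in model 3, and Acox2 was highest in control 3. A match of letters is a description and not a site in use.

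Activation of fatty acids is the task of the acyl-CoA synthetases. Acsl1, the main long-chain synthetase of several oxidative tissues, measured 111, 137 and 45.6 CPM in control 1, 2 and 3 and 220, 114 and 203 CPM in model 1, 2 and 3. Model 1 and model 3 were above all control libraries, but model 2 lay below control 2. Its log2 fold change of 0.87 (SE 0.43) was 0.55 without control 3 and 0.35 without both control 3 and model 1. Acsl3, a synthetase of the endoplasmic reticulum and lipid droplets, measured 35.6, 24.6 and 27.5 CPM in the control and 31.2, 34.2 and 38.6 CPM in the model libraries, with a log2 fold change of 0.25 (SE 0.21) and 0.22 without control 3. Its groups overlapped, since control 1 exceeded model 1 and model 2. Acsl4, which prefers arachidonic acid, was at 12.7 to 19.4 CPM in the control and 7.20 to 17.2 CPM in the model libraries. It was highest in control 3, and its log2 fold change was -0.22 (SE 0.36) with that library and -0.0082 without it.

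In the carnitine shuttle 4 of 5 genes were above 0 and Cpt1a was below, and differences between the genes were not tested. Cpt1a, the enzyme that commits long chains to mitochondrial entry, measured 233, 278 and 158 CPM in control 1, 2 and 3 and 196, 200 and 221 CPM in model 1, 2 and 3. The model libraries lay within the control range, at means of 206 ± 13.3 against 223 ± 60.4 CPM (SD, n = 3), and the log2 fold change was -0.12 (SE 0.25). Without control 3 all 3 model libraries lay below control 1 and 2, at a log2 fold change of -0.30 (SE 0.21). Crot, which makes carnitine esters of the medium chains that leave peroxisomes, measured 236, 293 and 114 CPM in the control and 423, 295 and 261 CPM in the model libraries, with a log2 fold change of 0.61 (SE 0.38) that was 0.32 without control 3. Control 2 lay between model 3 and model 2, so the groups overlapped. Crat, the carnitine acetyltransferase, measured 141, 148 and 50.3 CPM in the control and 218, 136 and 153 CPM in the model libraries. Its log2 fold change of 0.58 (SE 0.41) was 0.24 without control 3 and -0.0029 without both control 3 and model 1. Cpt2, the acyltransferase of the inner membrane, ran from 75.0 to 222 CPM in the control and from 120 to 262 CPM in the model libraries. Its log2 fold change of 0.26 was -0.045 without control 3. Slc25a20, the carrier that exchanges acylcarnitine for carnitine, stayed between 72.7 and 125 CPM in all 6 libraries. Control 3, at 89.1 CPM, was close to control 1, at 90.9 CPM, and the log2 fold change was 0.070, and 0.051 without control 3.

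Among the acyl-CoA dehydrogenases, which carry out the first oxidation of each round, Acadl had the smallest unadjusted p of all members. This long-chain dehydrogenase measured 115, 131 and 106 CPM in control 1, 2 and 3 and 228, 190 and 157 CPM in model 1, 2 and 3. All 3 model libraries lay above all 3 control libraries, at means of 192 ± 35.6 CPM in the model and 117 ± 12.3 CPM in the control group (SD, n = 3). Its log2 fold change was 0.71 (SE 0.21), with an adjusted p of 0.851 by edgeR's quasi-likelihood test over all genes and an unadjusted p of 0.012 by the same test. Control 3 was less far from the other controls here than for most members, with a ratio of control 1 and 2 to control 3 of 1.15. Leaving out control 3 gave 0.66, and leaving out control 3 and model 1 gave 0.50.

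Acadm, the medium-chain dehydrogenase, measured 140, 161 and 99.4 CPM in the control and 296, 141 and 168 CPM in the model libraries, with a log2 fold change of 0.60 (SE 0.33) that was 0.44 without control 3. Model 1 stood above the rest, while model 2 lay between control 1 and control 2. Without control 3 and model 1 the value was 0.033. Acadvl, for very long chains, ran from 44.1 to 111 CPM in the control and from 103 to 144 CPM in the model libraries. Its log2 fold change of 0.46 was 0.16 without control 3. Acads, for short chains, ran from 62.1 to 84.9 CPM in the control and from 64.7 to 123 CPM in the model libraries. Its log2 fold change of 0.26 was 0.19 without control 3. Electrons from the acyl-CoA dehydrogenases pass to the electron transfer flavoprotein and on to its membrane dehydrogenase. Etfa, its alpha subunit, measured 204, 249 and 112 CPM in the control and 362, 215 and 196 CPM in the model libraries (log2 fold change 0.45, SE 0.37, and 0.21 without control 3). Only model 1 lay above control 2. Etfdh, the dehydrogenase, measured 130, 137 and 66.8 CPM in the control and 178, 133 and 139 CPM in the model libraries (log2 fold change 0.43, SE 0.30, and 0.18 without control 3). Model 2 lay between control 1 and control 2, so the groups overlapped. Etfb, the beta subunit, was listed at 0 in 5 libraries and at 2 counts in control 3 and was not tested. Its exons overlap those of another annotated gene on the same strand in GENCODE M21, so its listing was not read as absence of the transcript.

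The later steps in mitochondria include the most abundant members per kilobase of transcript. Hadh, the short- and medium-chain hydroxyacyl-CoA dehydrogenase, averaged 349 CPM per kilobase over the 6 libraries and Acaa2, the thiolase that splits off acetyl-CoA, averaged 290 CPM per kilobase, while Etfa followed with 160. Hadh measured 647, 671 and 245 CPM in control 1, 2 and 3 and 1024, 559 and 602 CPM in model 1, 2 and 3. Model 2 and model 3 lay below control 1, and the log2 fold change of 0.48 (SE 0.44) was 0.16 without control 3 and -0.19 without both control 3 and model 1. Acaa2 had the widest range of the abundant members, at 272, 454 and 52.6 CPM in the control and 1024, 337 and 499 CPM in the model libraries. The means were 259 ± 201 CPM in the control and 620 ± 359 CPM in the model group (SD, n = 3). Model 2 lay below control 2, so the groups overlapped. Its log2 fold change of 1.26 (SE 0.74) was 0.79 without control 3 and 0.20 without both libraries. Echs1, the short-chain enoyl-CoA hydratase, ran from 63.0 to 142 CPM in the control and from 111 to 219 CPM in the model libraries. Its log2 fold change of 0.52 was 0.28 without control 3.

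**Figure D3:**
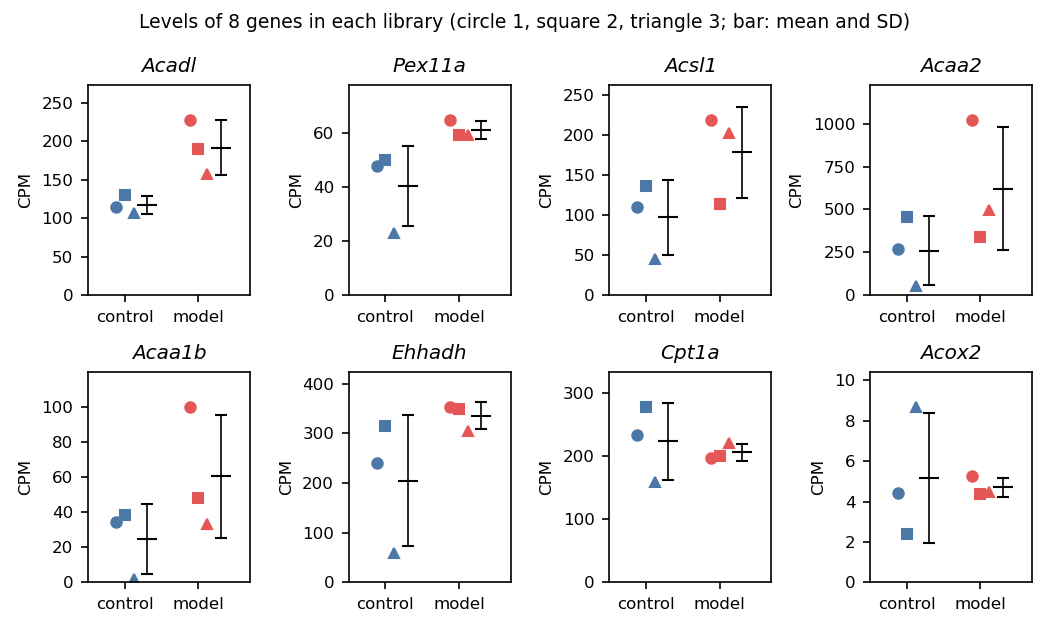
CPM (y axis, from 0) of 8 genes in each control (blue) and model (red) library, with circles, squares and triangles for libraries 1, 2 and 3 and a bar for the mean and SD of 3 libraries. Acadl and Pex11a are separated between groups, Acsl1, Acaa2, Acaa1b and Ehhadh have their lowest value in control 3, Cpt1a overlaps and Acox2 is highest in control 3 at 8.69 CPM.

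The auxiliary enzymes for unsaturated chains had the smallest median of the 7 role groups, 0.16 over 6 tested genes. Decr1, the mitochondrial dienoyl-CoA reductase, measured 145, 186 and 68.2 CPM in control 1, 2 and 3 and 200, 115 and 105 CPM in model 1, 2 and 3. Model 2 and model 3 lay below control 1 and control 2, and the log2 fold change of 0.073 (SE 0.41) was -0.22 without control 3 and -0.59 (SE 0.19) without both control 3 and model 1. In that last fit 3 members had an unadjusted p under 0.05 by edgeR, where 4.38% of all genes did. Decr1 (0.0138) and Eci1 (0.0261) were lower and Acadl (0.0268) was higher in the model libraries, each with an adjusted p of 0.977. All 3 had been lowest in control 3 and highest in model 1, so leaving both out favoured lower values in advance. Eci1 and Decr2, named after their values were seen, had -0.44 (SE 0.16) and -0.44 (SE 0.22) in the same fit, against 0.22 (SE 0.37) and 0.10 (SE 0.35) with all libraries and -0.026 and -0.14 without control 3. Eci1 encodes the mitochondrial enoyl-CoA isomerase, which ran from 30.8 to 62.2 CPM in the control and from 45.4 to 88.4 CPM in the model libraries. Decr2 encodes the peroxisomal dienoyl-CoA reductase and ran from 38.4 to 88.4 CPM in the control and from 50.5 to 91.6 CPM in the model libraries. In that fit 5 of the 6 auxiliary genes were below 0, with a median of -0.41, and the exception was Eci2 at 0.15.

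Ech1, a dienoyl-CoA isomerase, measured 127, 158 and 89.4 CPM in the control and 274, 125 and 130 CPM in the model libraries (log2 fold change 0.50, SE 0.37, and 0.33 without control 3). Model 1 stood apart and the other 2 model libraries lay within the control range. Eci2, the peroxisomal enoyl-CoA isomerase, measured 10.1, 9.46 and 6.65 CPM in the control and 12.6, 9.80 and 12 CPM in the model libraries (log2 fold change 0.39, SE 0.26, and 0.25 without control 3). Its groups overlapped only between control 1 and model 2. Its paralog Eci3 measured 19.0, 16.4 and 8.29 CPM in the control and 13.6, 16.3 and 10.9 CPM in the model libraries (log2 fold change -0.10, SE 0.34, and -0.37 without control 3). Of the stretches of 50 bases in Eci2 transcripts 5.31% occur in Eci3, so reads that the pair could share are few.

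In the peroxisomal spiral, Ehhadh, the bifunctional hydratase and dehydrogenase, measured 240, 315 and 59.1 CPM in control 1, 2 and 3 and 353, 349 and 304 CPM in model 1, 2 and 3. Only control 2 exceeded a model library, model 3, and the means were 205 ± 132 and 335 ± 27.4 CPM (SD, n = 3). The log2 fold change was 0.71 (SE 0.53) with all libraries, 0.29 (SE 0.24) without control 3 and 0.23 (SE 0.20) without both. Hsd17b4, the second bifunctional enzyme, measured 304, 335 and 95.8 CPM in the control and 500, 266 and 281 CPM in the model libraries (log2 fold change 0.51, SE 0.49, and 0.15 without control 3). Model 2 and model 3 lay below control 1. Acaa1b, a peroxisomal thiolase, measured 34.6, 38.1 and 1.71 CPM in the control and 99.9, 48.2 and 33.1 CPM in the model libraries (log2 fold change 1.28, SE 0.97). Control 3, with 72 counts against 1161 to 2885 counts elsewhere, set much of this value, which was 0.75 without it and 0.16 without both libraries. Its paralog Acaa1a was listed at 0 in all 6 libraries and was not tested. Of the stretches of 50 bases in Acaa1b transcripts 35.5% occur in Acaa1a, so the level of Acaa1b is uncertain and the 0 of Acaa1a was not read as absence. Acox2, the oxidase of branched chains and bile acid intermediates, named after its values were seen, was low, at 4.44, 2.41 and 8.69 CPM in the control and 5.26, 4.40 and 4.47 CPM in the model libraries. Control 3 was its highest library, and its log2 fold change was -0.14 (SE 0.46) with control 3 and 0.47 (SE 0.39) without it.

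The remaining members serve import into peroxisomes and their division. Pex11a, a membrane protein that elongates and divides peroxisomes, measured 48.0, 50.1 and 23.2 CPM in control 1, 2 and 3 and 65.1, 59.5 and 59.4 CPM in model 1, 2 and 3. All 3 model libraries lay above all 3 control libraries, at means of 61.3 ± 3.30 and 40.5 ± 14.9 CPM (SD, n = 3). The log2 difference was 0.60 (SE 0.30), and edgeR's adjusted p was 0.851. The difference was 0.34 (SE 0.19) without control 3 and 0.27 (SE 0.16) without both control 3 and model 1. Abcd3, a transporter of long and branched acyl-CoA, measured 417, 499 and 195 CPM in the control and 572, 378 and 375 CPM in the model libraries. Model 2 and model 3 lay below control 1 and control 2, and the log2 fold change of 0.25 (SE 0.38) was -0.035 without control 3. Abcd2, a related transporter, was at most 2.68 CPM, its value in control 3. Its log2 fold change was -0.36 (SE 0.70) with control 3 and 0.44 without it.

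**Figure D4:**
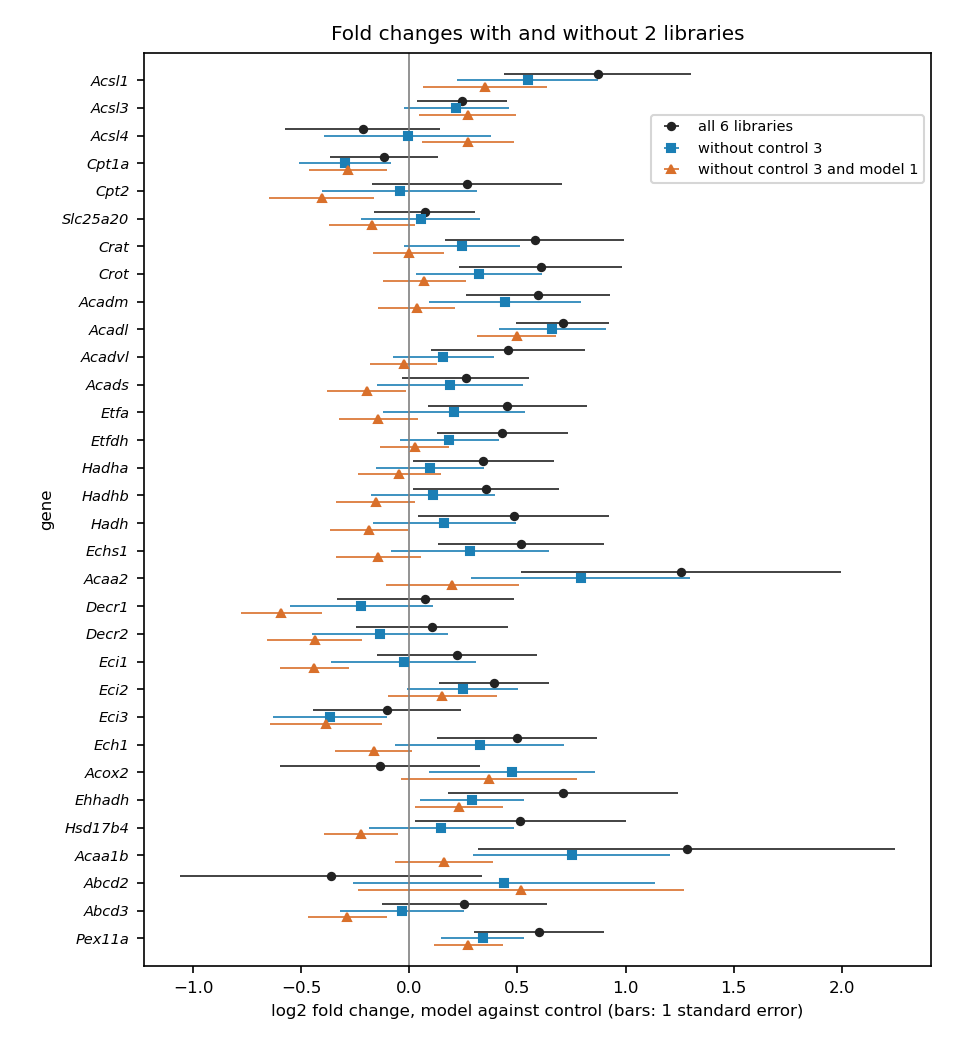
Log2 fold change of model against control (x axis, bars of 1 SE) for the 32 tested genes (y axis) with all 6 libraries, without control 3, and without control 3 and model 1. Most values move toward or past 0 as libraries are left out. Control 3 was lowest and model 1 highest for most of these genes, so leaving out both favours lower values in advance. Acadl goes from 0.71 to 0.66 and 0.50, and Acsl3 has 0.25, 0.22 and 0.27.

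The role groups can be set side by side as descriptions. With all libraries the medians were 0.25 for activation (2 of 3 above 0), 0.26 for the carnitine shuttle (4 of 5), 0.45 for dehydrogenases and electron transfer (6 of 6) and 0.48 for the later mitochondrial steps (5 of 5). They were 0.16 for the auxiliary enzymes (5 of 6), 0.61 for the peroxisomal spiral (3 of 4) and 0.25 for peroxisomal import and division (2 of 3). Without control 3 and model 1 the medians were -0.17 for the carnitine shuttle, -0.0018 for the dehydrogenases, -0.14 for the later mitochondrial steps and 0.19 for the peroxisomal spiral. They were 0.27 for activation, 0.27 for peroxisomal import and division and -0.41 for the auxiliary enzymes. Without control 3 alone they were, in the order of the roles above, 0.22, 0.051, 0.20, 0.16, -0.081, 0.38 and 0.34. No test was made of the differences between role groups.

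The rest of the pathway was read from lists named with the members' list. Of 32 other fatty acid oxidation genes 29 were tested and edgeR called 0, with 1 at an unadjusted p under 0.05, 19 above 0 and a median of 0.22. Control 3 was the lowest library for 20 of the 29, against 26.8% of all genes. Without control 3 the list had 17 of 29 above 0 and a median of 0.032, and without both control 3 and model 1 it had 9 of 29 and -0.15. Slc22a5, the plasma membrane carnitine transporter, had the smallest unadjusted p of that list, at 115, 162 and 99.8 CPM in control 1, 2 and 3 and 226, 220 and 228 CPM in model 1, 2 and 3. The model libraries lay close together above all controls, by 0.84 (SE 0.23) on the log2 scale (0.71 without control 3), with an adjusted p of 0.851 in edgeR. Cpt1c, a brain-type paralog of Cpt1a, had lower values in all 3 model libraries (log2 fold change -0.65, SE 0.31, and -0.54 without control 3), from control levels of at most 4.16 CPM. Slc27a4, a fatty acid transport protein, had 0.48 (SE 0.40), and 0.19 without control 3.

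Among 14 tested genes for PPAR receptors and their co-regulators edgeR called 0, with 1 at an unadjusted p under 0.05, and 11 were above 0, with a median of 0.33. Without control 3 it was 9 of 14 and 0.15, and without control 3 and model 1 it was 11 of 14 and 0.18. Ppargc1a, the co-activator that drives mitochondrial genes, measured 40.6, 65.7 and 18.0 CPM in the control and 87.1, 81.1 and 146 CPM in the model libraries, and the groups did not overlap (log2 fold change 1.34, SE 0.47, and 0.99 without control 3). The nuclear receptors Hnf4a and Hnf4g were the most abundant of the list, at -0.15 (SE 0.27) and 0.58 (SE 0.35) on the log2 scale, and at -0.18 and 0.34 without control 3.

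Of 16 tested PPAR targets outside the oxidation spirals edgeR called 0, with 7 at an unadjusted p under 0.05, against 4.81% of all genes. Of the 7 only Mgll, named after its values were seen, was lower in the model libraries (log2 fold change -0.69, SE 0.25). Of these 16 genes 14 were above 0, the median was 0.74 and 13 were lowest in control 3, where 26.8% of all genes were. DESeq2 called the thioesterase gene Acot1, with an adjusted p of 0.00021, which edgeR did not. For Ucp2, a mitochondrial carrier, the log2 fold change was 0.73 (SE 0.48), and 0.46 without control 3. The fatty acid binding protein gene Fabp1, which is also among the proximal segment markers, was at 0.926 CPM in control 3 and between 822 and 1520 CPM elsewhere. The median of this list was 0.47 without control 3, with 13 of 16 above 0, and 0.18 without control 3 and model 1, with 10 of 16 above 0.

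Peroxisome biogenesis genes had 13 of 17 above 0 and a median of 0.24, and citrate cycle and other general mitochondrial genes had 18 of 19 above 0 and a median of 0.30. edgeR called 0 genes of either list, and 0 had an unadjusted p under 0.05. The peroxisomal import receptor gene Pex5 was at 0.47 (SE 0.25) on the log2 scale, Pex13 of the docking complex 0.45 (SE 0.26), the catalase gene Cat 0.60 (SE 0.48) and the chaperone gene Pex19 0.22 (SE 0.37). Without control 3 these were 0.27, 0.32, 0.23 and -0.076. The malate dehydrogenase gene Mdh2 measured 1591, 2005 and 278 CPM in the control and 3430, 1600 and 1658 CPM in the model libraries. It was lowest in control 3 and highest in model 1, as most oxidation genes were. Ogdh had 0.29 (SE 0.39) and Sucla2 0.47 (SE 0.31), and without control 3 Mdh2, Ogdh and Sucla2 had 0.33, -0.0076 and 0.29. Without control 3 the median was 0.12 for the general mitochondrial list (14 of 19 above 0) and 0.075 for the biogenesis list (10 of 17). Without control 3 and model 1 the general mitochondrial list had 2 of 19 above 0 and a median of -0.15, and the biogenesis list 6 of 17 and -0.049.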

How the data were processed

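Poly-A selected RNA from frozen small intestine was sequenced, per the labels' protocols. FastQC, Trimmomatic, STAR and featureCounts were run on build GRCm39, per the submitters' processing notes. For their versions, the annotation, and the strand and multi-mapping settings, no label or header gives a value. The authors deposited raw read counts, whole numbers per gene symbol and library. All 6 columns were matched to samples by library name.

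Genes were kept by filterByExpr and scaled by TMM, and model was compared with control by the quasi-likelihood F test of edgeR, fitted robustly with group as the only term (R 4.3.3, edgeR 4.0.16, limma 3.58.1, DESeq2 1.42.0). The fit ran over all genes, and its code was checked on simulated counts with a smaller spread than these libraries show. That check cannot tell how many true changes the test would find here. Each SE was taken from the F statistic, as the size of the log2 fold change over the root of F. Libraries of a group varied by a biological coefficient of variation of 40.7%. No pair of libraries in a group looked like a duplicate, with a chi-square of their counts of 115 to 490 per degree of freedom.

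The members, lists and rules were chosen with earlier results of these data known. Values in every library are given for the 10 members with the smallest p, the 2 most abundant of each role, and genes with close copies. Of the other pathway lists, the 2 genes with the smallest p and the 2 most abundant are named, except some that are not reported here. Transcript lengths and overlaps are from GENCODE M21 (GRCm38), and no coordinates of the counted build are printed. In that annotation exons of 13 members overlap another gene, and without a known strand setting such reads cannot be told apart. Promoters are RefSeq's (GRCm38.p6).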

Additional observations from a re-analysis of the deposited data

How the results depend on the processing

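Each result was recomputed under 15 alternatives (scalings, DESeq2, limma-voom, filters, dispersion, a replicate block and each library left out) and under 2 chosen after seeing the data. In none of them was a member called. Genes called in all stayed at 0 except with DESeq2, which called 25. With 1 library left out, the number of members whose groups did not overlap ran from 2 to 12. The 2 came without model 1, both higher, where 8.60% of all genes were higher and 10.6% lower without overlap. The 12 came without control 2, 11 higher and 1 lower, against 12.9% and 14.2% of all genes. The median log2 fold change of all members ran from 0.14 (without model 1) to 0.64 (without control 2). Scaling by library size alone moved the median of all genes to -0.21 and that of the members to 0.22, a gap of 0.43 that equals the gap with TMM. Voom with library quality weights, which gave control 3 and model 1 the lowest weights (0.47 and 0.34), put the members' median at 0.12. Without control 3 and model 1 together the median was -0.037, 14 members were higher and 11 did not overlap (3 higher, 8 lower, against 16.1% and 17.7% of all genes).

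Signs of single genes turned as follows. With 1 library left out, log2 fold changes ranged from -0.43 to 0.082 for Acsl4, -0.30 to 0.088 for Cpt1a, -0.075 to 0.65 for Cpt2, -0.13 to 0.25 for Slc25a20, -0.11 to 0.43 for Acads, -0.28 to 0.41 for Decr1, -0.18 to 0.45 for Decr2, -0.17 to 0.40 for Eci1, -0.37 to 0.14 for Eci3, -0.46 to 0.47 for Acox2, -0.82 to 0.44 for Abcd2, -0.035 to 0.55 for Abcd3, -0.0076 to 0.57 for Ogdh and -0.076 to 0.60 for Pex19. Without control 3 and model 1 they were 0.27 for Acsl4, -0.41 for Cpt2, -0.17 for Slc25a20, -0.0029 for Crat, -0.027 for Acadvl, -0.20 for Acads, -0.14 for Etfa, -0.047 for Hadha, -0.16 for Hadhb, -0.19 for Hadh, -0.14 for Echs1, -0.59 for Decr1, -0.44 for Decr2, -0.44 for Eci1, -0.16 for Ech1, 0.37 for Acox2, -0.22 for Hsd17b4, 0.52 for Abcd2, -0.29 for Abcd3, -0.15 for Mdh2, -0.084 for Ogdh, -0.0055 for Sucla2, -0.083 for Cat, -0.26 for Pex19, -0.082 for Fabp1 and -0.071 for Ucp2. With library size alone they were -0.14 for Slc25a20, -0.13 for Decr1 and -0.093 for Decr2, and Slc25a20 was at -0.0085 with upper quartile scaling. With quality weights they were 0.071 for Acsl4, -0.059 for Cpt2, -0.069 for Slc25a20, -0.27 for Decr1, -0.13 for Decr2, -0.22 for Eci1, 0.096 for Acox2, 0.11 for Abcd2 and -0.021 for Abcd3. With plain voom Acox2 was at 0.025 and Abcd2 at 0.035. Leaving out control 3 and model 1 together favours lower values for most members in advance. Beyond this and the fewer libraries in some fits, the cause was not tested.

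The main fit did not treat the replicate numbers as pairs, and the correlations below are too few to exclude a pairing. Deviations of libraries with the same number had correlations of -0.15, -0.27 and 0.31, and control 2 correlated best with model 1 (0.48). With the replicate block 0 genes were called, as without it, and Acox2 turned to 0.052 and Abcd2 to 0.0098. With 3 libraries per group and this spread, differences of the size seen here did not pass the test over all genes. Counts were low for Acox2 (90 to 366, SE 0.46) and Abcd2 (12 to 113, SE 0.70), and the part of low counts in these SEs was not tested.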
